A study of Mus musculus with 12 samples.

Results

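The nicotinic acetylcholine receptor of muscle and the proteins that gather it at the neuromuscular synapse were followed in C2C12 cells, a mouse myoblast line, by RNA-Seq. The 10 genes were *Chrna1*, *Chrnb1*, *Chrnd*, *Chrng* and *Chrne*, which encode the subunits of the receptor, and *Agrn*, *Lrp4*, *Musk*, *Dok7* and *Rapsn*, which encode the clustering pathway. They were chosen by symbol, through the Ensembl identifier of each gene, out of 46983 genes in the expression table, and all 10 were found. All 10 also passed the filter on low values, which kept 18023 genes. WT cells, the PB-IP vector group of wild type genotype, and PPARγ/+ cells, which carried the sense PPARγ construct in the PiggyBac vector PB-IP, were each collected on 0d and on 5d of differentiation. The groups were WT_0d, WT_5d, PPARγ/+_0d and PPARγ/+_5d, with 3 libraries each and 12 in all. PPARγ/+ cells had been selected with puromycin after transfection with transposase, and the study's methods speak of positive clones and stable lines without saying how many clones were used. The design note of the series speaks of an inducible PPARγ and of uninduced controls, while the sample labels give the controls as wild type. The study calls the libraries of a group biological replicates. Neither it nor the labels say whether they came from separate cultures, so p-values measure the spread between these libraries.

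In muscle, the receptor is a channel that opens when acetylcholine from the motor nerve binds it. It is built of a pair of alpha subunits with a beta, a delta and either a gamma subunit, in fetal and denervated muscle, or an epsilon subunit, in innervated adult muscle. Agrin, secreted by the nerve and in another form by muscle, binds LRP4, which activates the receptor kinase MuSK, DOK7 acts from inside the cell as an adaptor of MuSK, and rapsyn holds the receptors together in clusters. Myogenic transcription factors such as MyoD and myogenin bind E-boxes, and Ets factors bind the N-box that lies before several subunit genes.

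Upstream sequences are shown for the 2 receptor subunits that replace each other, *Chrng* and *Chrne*, for the subunit with the highest level, *Chrna1*, and for the kinase gene *Musk*. RefSeq promoter sequences of GRCm38.p6 were matched by symbol for 7 of the 10 genes, and *Chrnd*, *Rapsn* and *Lrp4* were not among them. Each sequence runs from 250 to 31 bases before the start of the RefSeq transcript, 5′ to 3′ on the strand of the gene. The *Chrng* window is chr1:87205561-87205780 on the plus strand, inside an intron of the longer *Chrng* gene model of the annotation. The *Chrne* window is chr11:70619225-70619444 on the minus strand, the *Chrna1* window is chr2:73580369-73580588 on the minus strand, and the *Musk* window is chr4:58285712-58285931 on the plus strand, all outside annotated genes. Capitals mark matches to the E-box CANNTG, of which CAGCTG is the form with G and C in the middle, and to the N-box core CCGGAA, each searched on both strands.
Chrng: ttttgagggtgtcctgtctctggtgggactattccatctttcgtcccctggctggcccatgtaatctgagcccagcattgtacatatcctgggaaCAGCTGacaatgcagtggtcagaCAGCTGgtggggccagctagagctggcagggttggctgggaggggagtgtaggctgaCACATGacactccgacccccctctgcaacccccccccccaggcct
Chrne: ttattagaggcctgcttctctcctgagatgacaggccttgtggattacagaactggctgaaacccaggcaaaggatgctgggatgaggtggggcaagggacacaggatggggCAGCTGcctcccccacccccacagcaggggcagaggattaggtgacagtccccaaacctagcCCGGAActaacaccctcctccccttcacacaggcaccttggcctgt
Chrna1: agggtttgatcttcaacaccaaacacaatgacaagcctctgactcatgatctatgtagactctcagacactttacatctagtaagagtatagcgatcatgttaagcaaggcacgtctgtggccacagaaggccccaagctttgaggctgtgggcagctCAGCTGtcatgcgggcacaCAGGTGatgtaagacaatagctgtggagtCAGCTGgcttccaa
Musk: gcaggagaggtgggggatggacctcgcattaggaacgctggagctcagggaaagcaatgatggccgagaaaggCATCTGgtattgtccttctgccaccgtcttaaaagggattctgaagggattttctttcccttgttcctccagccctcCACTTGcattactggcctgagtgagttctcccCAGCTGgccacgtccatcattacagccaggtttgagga

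*Chrng* and *Chrna1* each held 3 E-boxes, of which 2 had G and C in the middle, at -155 and -132 in *Chrng* and at -92 and -44 in *Chrna1*, counted from the transcript start to the first base of the match. *Musk* held 3 E-boxes, with the G and C form at -68. *Chrne* held 1 E-box, of the G and C form, at -138, and 1 N-box core at -76. In the same window, the G and C form was found in 11.4% of 32851 promoters, any E-box in 62.1% and the N-box core in 9.47%. These are matches of letters, and binding was not measured.

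The libraries held between 15557940 and 22013347 fragments on genes, as recovered from the FPKM. *Pparg* itself lay between 3.12 and 7.56 FPKM in the WT libraries and between 28.0 and 92.7 FPKM in the PPARγ/+ libraries, and every PPARγ/+ library lay above every WT library. A list of 10 contractile markers of myotubes, such as *Myh3*, *Acta1* and *Ckm*, set 2 libraries apart from their groups. In WT_5d, its summed level was 1185 FPKM in replicate 3 against 5921 and 4244 in replicates 1 and 2, and in PPARγ/+_5d it lay between 1149 and 1362. In WT_0d, it was 127 FPKM in replicate 2 against 18.7 and 12.8 in replicates 1 and 3, and in PPARγ/+_0d it lay between 8.60 and 27.0. Values without 1 or both of these libraries are given where they moved a result. Of 8 neuron markers, *Snap25*, *Slc18a3* and *Mnx1* were listed at 0 in all 12 libraries, as was *Sox10* of 6 Schwann cell markers. Other neuron markers were not, with *Tubb3*, a tubulin, at 45.5 FPKM and *Stmn2*, a stathmin, at 12.4 FPKM in WT_0d. The summed level of 6 adipocyte markers was at most 0.0794 FPKM in WT cells, 2.90 to 5.04 in PPARγ/+_0d and 13.3 to 67.2 in PPARγ/+_5d.

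**Figure D1:**
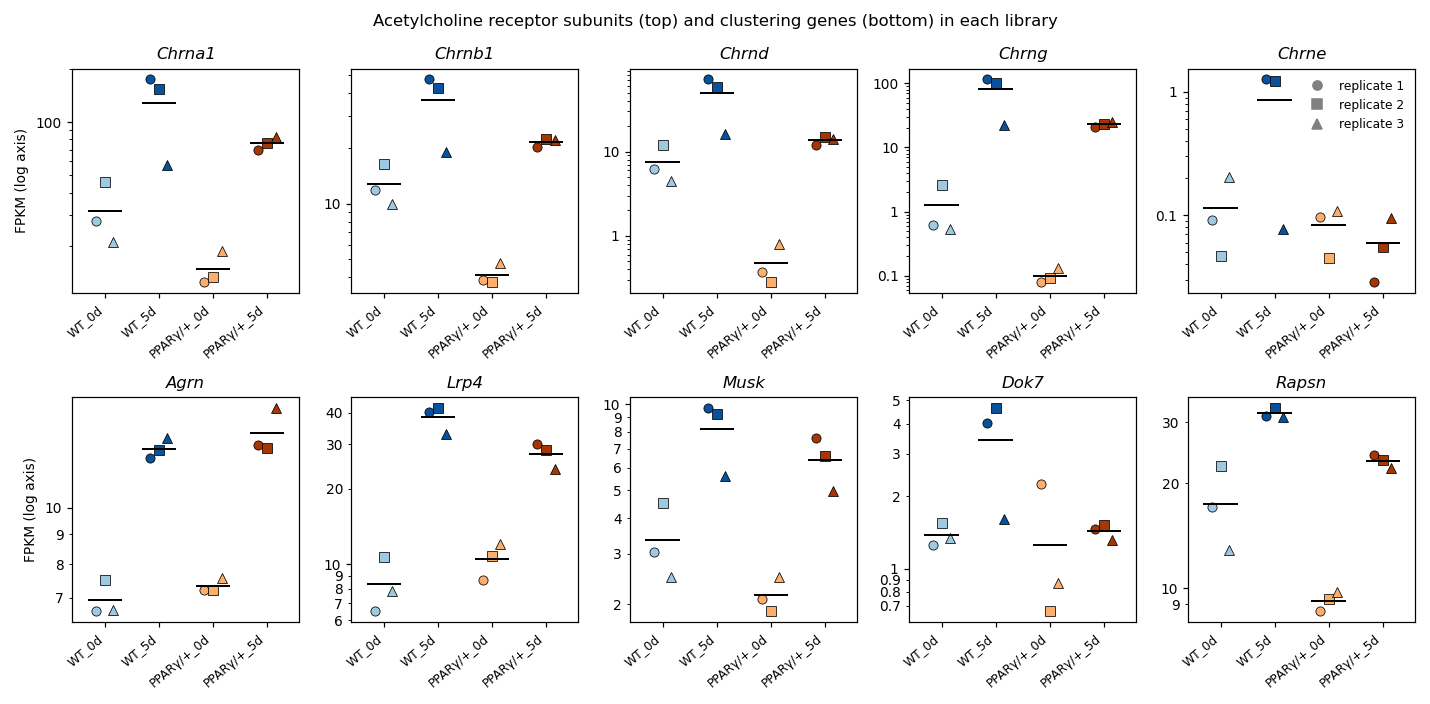
FPKM on a log axis of the 5 receptor subunit genes (top) and the 5 clustering genes (bottom) in the 12 libraries. Points are libraries, their shapes are replicate numbers and bars are group means. WT_5d replicate 3 (triangle) is the lowest of its group for 9 of the 10 genes, all but *Agrn*.

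The first question was which of these genes changed from 0d to 5d in WT cells. Of the 10 genes, 7 rose and none fell, by the thresholds of the study (unadjusted p-value no higher than 0.05, change of 2-fold or more), and 8.94% of all genes tested rose. The 7 were *Chrna1*, *Chrnb1*, *Chrnd*, *Chrng*, *Lrp4*, *Musk* and *Dok7*. Without WT_0d replicate 2 and WT_5d replicate 3, 9 of the 10 rose, all but *Agrn*, against 9.58% of all genes. These libraries were chosen after the data were seen, by contractile markers that also rose from 0d to 5d. Leaving out a high 0d library and a low 5d one favours larger changes, so fits without them are not separate support. In 9 of the 10, all but *Chrne*, the libraries of WT_5d lay above all those of WT_0d, as in 20.2% of all genes. The median log2 fold change of the 10 was 1.59, and that of all genes tested was -0.08. In RNA of whole cultures, more cells of a type and more RNA per cell cannot be told apart.

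*Chrng* (chr1:87204657-87212694, plus strand), the gamma subunit of fetal and denervated muscle, had the largest fold change of the 10. Its FPKM in replicates 1, 2 and 3 was 0.619, 2.65 and 0.529 in WT_0d, and 118, 102 and 22.8 in WT_5d. The groups did not overlap, although replicate 3 of WT_5d was far below the others. On the log2(FPKM + 0.1) scale it rose by 5.92 ± 0.81 (SE, n = 3 per group), a 60.5-fold change (limma, adjusted p = 0.00248). Without WT_5d replicate 3 the value was 6.67, and without WT_0d replicate 2 as well it was 7.35. The lowest value with 1 library left out was 5.49.

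*Chrna1* (chr2:73563215-73580338, minus strand), the alpha subunit that carries the acetylcholine binding site, was the highest of the 10 in each group. It had 27.8, 46.0 and 21.0 FPKM in WT_0d and 176, 153 and 57.5 FPKM in WT_5d, with no overlap. Its log2 fold change was 1.95 ± 0.48 (SE), which is 3.86-fold (limma, adjusted p = 0.0216). It was 2.45 without WT_5d replicate 3 and 2.76 without WT_0d replicate 2 as well. *Chrnd* (chr1:87190607-87200070, plus strand), the delta subunit, lies beside *Chrng* on chromosome 1. It went from 6.16, 11.8 and 4.52 FPKM to 73.0, 58.8 and 16.3 FPKM, a log2 fold change of 2.56 ± 0.62 (SE, adjusted p = 0.0205 in limma) that was 3.22 without WT_5d replicate 3 and 3.61 without both libraries. *Chrnb1* (chr11:69784036-69795943, minus strand), the beta subunit, went from 11.9, 16.5 and 10.03 FPKM to 47.7, 42.6 and 19.0 FPKM. Its log2 fold change was 1.43 ± 0.37 (SE, adjusted p = 0.0261 in limma), and 1.84 and 2.04 in the same fits. With 1 library left out, the lowest values were 1.65 for *Chrna1*, 2.15 for *Chrnd* and 1.18 for *Chrnb1*.

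*Chrne* (chr11:70614883-70619216, minus strand), the epsilon subunit of adult muscle, was the lowest of the 10 in each group. Its FPKM was 0.0915, 0.0469 and 0.204 in WT_0d, from 3, 2 and 8 fragments. In WT_5d it was 1.28, 1.23 and 0.0779, from 55, 40 and 3 fragments, so replicates 1 and 2 lay above every WT_0d library and replicate 3 did not. The log2 fold change of 1.75 ± 0.83 (SE) missed the threshold (adjusted p = 0.148 in limma). It was called, at 2.72, without WT_5d replicate 3, and at 2.49 without both. The lowest value with 1 library left out was 1.25.

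Of the clustering genes, *Lrp4* (chr2:91457511-91513779, plus strand), the agrin receptor, had the largest change in WT cells. It had 6.50, 7.84 and 10.7 FPKM in the WT_0d libraries from lowest to highest, and 33.0, 40.1 and 41.9 FPKM in those of WT_5d. The groups lay well apart and the log2 fold change was 2.21 ± 0.19 (SE), 4.62-fold (limma, adjusted p = 0.000552). It was 2.31 without WT_5d replicate 3 and 2.50 without both. *Musk* (chr4:58285960-58374303, plus strand) had 3.06, 4.504 and 2.48 FPKM in WT_0d and 9.73, 9.28 and 5.63 FPKM in WT_5d, a log2 fold change of 1.27 ± 0.29 (SE, adjusted p = 0.0153 in limma) that was 1.52 and 1.75 in those fits. *Dok7* (chr5:35056766-35087839, plus strand) had 1.25, 1.55 and 1.33 FPKM in WT_0d and 4.01, 4.65 and 1.61 FPKM in WT_5d. Its log2 fold change was 1.13 ± 0.39 (SE, adjusted p = 0.0616 in limma), and the call was lost when WT_0d replicate 1 or 3 or WT_5d replicate 1 or 2 was left out, at 0.85 to 1.11. It was 1.59 without WT_5d replicate 3 and 1.67 without both. With 1 library left out, the lowest value of *Lrp4* was 2.05 and that of *Musk* was 1.08.

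*Agrn* and *Rapsn* were higher in every WT_5d library than in every WT_0d library, but changed by less than 2-fold. *Agrn* (chr4:156165290-156197488, minus strand) had 6.63, 7.51 and 6.67 FPKM in WT_0d and 12.2, 12.6 and 13.2 FPKM in WT_5d, and a log2 fold change of 0.86 ± 0.08 (SE, adjusted p = 0.000801 in limma). *Rapsn* (chr2:91035620-91045729, plus strand) had 17.1, 22.5 and 12.9 FPKM in WT_0d and 31.3, 33.0 and 30.97 FPKM in WT_5d, a log2 fold change of 0.89 ± 0.19 (SE, adjusted p = 0.0130 in limma). *Rapsn* passed 2-fold, at 1.09, without WT_0d replicate 2, and was as low as 0.69 with another library left out. It shares 4 bases of exon with the antisense gene *Gm13778*, which had 13 to 46 fragments per library against 378 or more of *Rapsn*.

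In PPARγ/+ cells, 7 of the 10 genes rose from 0d to 5d by the same thresholds and none fell, against 9.11% of all genes that rose. They were *Chrna1*, *Chrnb1*, *Chrnd*, *Chrng*, *Lrp4*, *Musk* and *Rapsn*. In 8 of the 10, these and *Agrn*, no library of PPARγ/+_5d fell below the highest of PPARγ/+_0d, as in 23.8% of all genes. The median log2 fold change of the 10 was 1.45, against -0.10 over all genes tested.

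*Chrng* had 0.0787, 0.0921 and 0.132 FPKM in PPARγ/+_0d, from 8, 10 and 12 fragments, and 20.7, 23.1 and 24.99 FPKM in PPARγ/+_5d, from 1788, 2064 and 1933 fragments. It was near the lowest measurable level in every library on 0d and within a narrow range on 5d. The log2 fold change was 6.84 ± 0.14 (SE, adjusted p = 6.46e-06 in limma), and its size rests on the 0.1 added to each value, since the level on 0d was about as large. *Chrnd* had 0.374, 0.280 and 0.794 FPKM in PPARγ/+_0d and 11.9, 14.7 and 14.1 FPKM in PPARγ/+_5d, a log2 fold change of 4.64 ± 0.31 (SE, adjusted p = 7.48e-05 in limma).

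*Chrna1* went from 12.5, 13.5 and 18.7 FPKM to 69.6, 75.8 and 82.5 FPKM, a 5.15-fold change (log2 2.36 ± 0.15 SE, adjusted p = 7.32e-05 in limma). *Chrnb1* went from 3.84, 3.74 and 4.80 FPKM to 20.3, 22.3 and 22.2 FPKM, a 5.17-fold change (log2 2.37 ± 0.10 SE, adjusted p = 2.23e-05 in limma). For each of the 4 subunits that rose, every PPARγ/+_5d library thus lay above every PPARγ/+_0d library. *Chrne* had 2 to 4 fragments in each library of 0d and 1 to 3 in those of 5d, that is 0.0454 to 0.108 FPKM and 0.0285 to 0.0955 FPKM, so that no change was detectable at this depth.

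Among the clustering genes of PPARγ/+ cells, *Lrp4* had 8.63, 10.8 and 12.1 FPKM on 0d and 29.98, 28.4 and 23.9 FPKM on 5d, and it rose by 1.38 ± 0.14 on the log2 scale (SE, adjusted p = 0.000371 in limma). *Musk* had 2.09, 1.89 and 2.50 FPKM on 0d and 7.64, 6.58 and 4.99 FPKM on 5d, and it rose by 1.51 ± 0.18 (SE, adjusted p = 0.000635 in limma). *Rapsn* had 8.60, 9.34 and 9.76 FPKM on 0d and 24.1, 23.3 and 22.1 FPKM on 5d, and it rose by 1.32 ± 0.07 (SE, adjusted p = 3.03e-05 in limma). All 3 had groups that lay apart. *Agrn* went from 7.21, 7.22 and 7.56 FPKM to 12.9, 12.7 and 14.9 FPKM, a log2 fold change of 0.87 ± 0.08 (SE) that was under 2-fold. *Dok7* had 2.23, 0.664 and 0.868 FPKM on 0d and 1.46, 1.51 and 1.31 FPKM on 5d, with groups that overlapped and a log2 fold change of 0.34 whose 95% interval ran from -0.61 to 1.29.

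**Figure D2:**
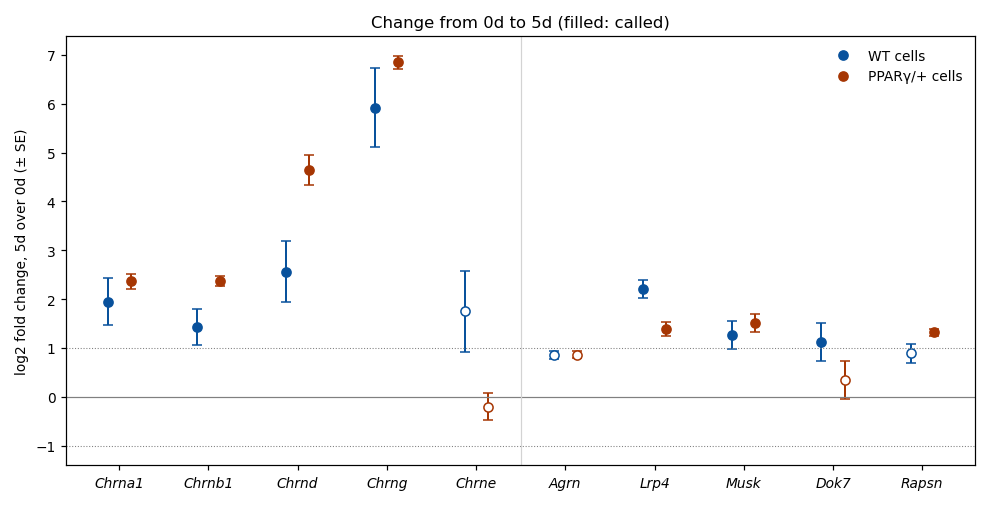
Log2 fold change from 0d to 5d with its SE for the 10 genes in WT and PPARγ/+ cells, from limma on log2(FPKM + 0.1). Filled points passed the thresholds and dotted lines mark 2-fold. *Chrng* changed most in both cell types, at 5.92 and 6.84, and *Agrn* lay at 0.86 and 0.87.

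The interaction term of a model with all 12 libraries compared how far each gene moved in PPARγ/+ cells with how far it moved in WT cells. No gene of the 10 passed an adjusted p-value of 0.05 in limma, which 0.76% of all genes tested did, and 3 had an unadjusted p-value below 0.05, as did 12% of all genes. Limma with voom on the recovered fragments also called 0. The 3 genes were *Chrnd*, with a larger change in PPARγ/+ cells by 2.09 ± 0.75 on the log2 scale (SE, adjusted p = 0.277 in limma), *Chrnb1*, by 0.94 ± 0.41 (SE, adjusted p = 0.395), and *Lrp4*, with a smaller change by -0.83 ± 0.25 (SE, adjusted p = 0.203). *Agrn* had an interaction of 0.01 with a 95% interval from -0.24 to 0.25, the narrowest of the 10. *Chrnd* was at 1.42 without WT_5d replicate 3 and at 1.04 without WT_0d replicate 2 as well, and *Chrnb1* at 0.53 and 0.33. Without WT_5d replicate 3, 1 gene was called, *Chrne* at -2.93 (adjusted p = 0.0103 in limma), against 2.92% of all genes. Without WT_0d replicate 2 as well, 2 genes were called, *Chrne* at -2.69 and *Lrp4* at -1.12 (adjusted p = 0.0256 in limma), against 2.71% of all genes. These fits share their libraries with the comparisons by day. *Chrne* had 3 fragments in WT_5d replicate 3, against 55 and 40 in replicates 1 and 2, so its calls rest on the latter. Over all alternatives its interaction ran from -2.93 to -0.70.

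On 0d, PPARγ/+ cells were then compared with WT cells. *Chrnd* and *Chrnb1* were lower in PPARγ/+ cells, 2 of the 10, with an adjusted p-value no higher than 0.05 and 2-fold or more, against 1.23% of all genes that were lower. The level of *Chrnd* was at most 0.794 FPKM in PPARγ/+_0d and at least 4.52 FPKM in WT_0d, a log2 fold change of -3.69 ± 0.46 (SE, adjusted p = 0.0212 in limma), which is 12.9-fold. With 1 in place of 0.1 added to each FPKM it was -2.44 and still called. The level of *Chrnb1* was at most 4.80 FPKM in PPARγ/+_0d and at least 10.03 FPKM in WT_0d, a log2 fold change of -1.59 ± 0.20 (SE, adjusted p = 0.0215 in limma), which is 3.01-fold. With 1 library left out, *Chrnd* was called in none of the 6 fits and *Chrnb1* in 2 of them, those without WT_0d replicate 2 or 3. In these 6 fits, 0.189% to 0.455% of all genes were called lower, against 1.23% with all libraries. The log2 fold changes of *Chrnd* and *Chrnb1* stayed between -4.05 and -3.31 and between -1.75 and -1.39.

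In 5 of the 10 genes, *Chrna1*, *Chrnb1*, *Chrnd*, *Chrng* and *Rapsn*, all PPARγ/+_0d libraries lay below all WT_0d libraries, as in 13.1% of all genes. *Chrng* was at -2.43 ± 0.58 (SE, adjusted p = 0.0808 in limma), *Chrna1* at -1.03 ± 0.31 (SE, adjusted p = 0.134) and *Rapsn* at -0.88 ± 0.20 (SE, adjusted p = 0.0706), and none of these passed. The value of *Chrng* rests on the 0.1 added to each FPKM, which is as large as its level in PPARγ/+_0d. It was -0.92 with 1 added, -3.28 with voom on the fragments and -1.75 without WT_0d replicate 2. It passed with all 12 libraries in 1 fit and with the filter at 1 FPKM, and *Chrna1* passed with voom. With unadjusted p-values, 4 of the 10 were lower by 2-fold or more, *Chrna1*, *Chrnb1*, *Chrnd* and *Chrng*, against 2.41% of all genes. *Agrn* differed by 0.08 with a 95% interval from -0.10 to 0.26, and *Lrp4* by 0.35 with an interval from -0.17 to 0.86. Of 6 myoblast markers, 3 were also called lower on this day, *Des*, *Cdh15* and *Myf5*, against 1.23% of all genes. *Myf5* is listed among the activity-dependent regulators too. The tubulin *Tubb3* was called lower as well (-2.20, adjusted p = 0.0139 in limma). The summed level of the 6 myoblast markers was 97.1 to 138 FPKM in PPARγ/+_0d against 212 to 385 FPKM in WT_0d. The part of these genes in the difference of the receptor genes was not tested.

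On 5d, none of the 10 genes passed an adjusted p-value of 0.05 and 2-fold between PPARγ/+ and WT cells in limma, as 0.155% of all genes tested did, and voom on the recovered fragments called 0 as well. With an unadjusted p-value below 0.05 there were 5, *Chrnd*, *Chrne*, *Dok7*, *Lrp4* and *Rapsn*, against 12.7% of all genes, and *Chrnd*, *Chrne* and *Dok7* among them, 3 genes, were lower by 2-fold or more, against 1.81%. In 4 of the 10, *Chrnd*, *Lrp4*, *Dok7* and *Rapsn*, all PPARγ/+_5d libraries lay below all those of WT_5d, as in 8.31% of all genes. *Rapsn*, with 22.1 to 24.1 FPKM in PPARγ/+_5d and 30.97 to 33.0 in WT_5d, differed by -0.45 ± 0.06 on the log2 scale (SE, adjusted p = 0.0694 in limma). *Agrn* differed by 0.09 with a 95% interval from -0.11 to 0.28, which is well under 2-fold.

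This result depended on WT_5d replicate 3, the library with the low contractile markers. Without it, 6 of the 10 genes were called lower in PPARγ/+ cells, against 2.82% of all genes. They were all 5 subunits, with log2 fold changes of -1.11 for *Chrna1*, -1.06 for *Chrnb1*, -2.27 for *Chrnd*, -2.26 for *Chrng* and -3.10 for *Chrne*, and *Dok7* at -1.54 (adjusted p between 0.00604 and 0.00972 in limma). With the library, the same values were -0.61, -0.65, -1.60, -1.50, -2.13 and -1.08. None of the 10 was called when any other library was left out. WT_5d replicate 3 was the lowest of its group for all but *Agrn*. Leaving out such a library favours larger differences, so this fit is not separate support. In that library *Chrna1* at 57.5 FPKM, *Chrnb1* at 19.0 FPKM, *Chrng* at 22.8 FPKM and *Chrne* at 0.0779 FPKM lay below or within the range of PPARγ/+_5d. *Lrp4*, *Rapsn*, *Chrnd* and *Dok7* lay above that range in it, at 33.0, 30.97, 16.3 and 1.61 FPKM. For *Chrne*, 98 fragments in WT_5d stood against 6 in PPARγ/+_5d, a ratio of 14.7 per mapped fragment with a 95% counting interval from 6.52 to 41.1 that leaves out the spread between libraries.

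**Figure D3:**
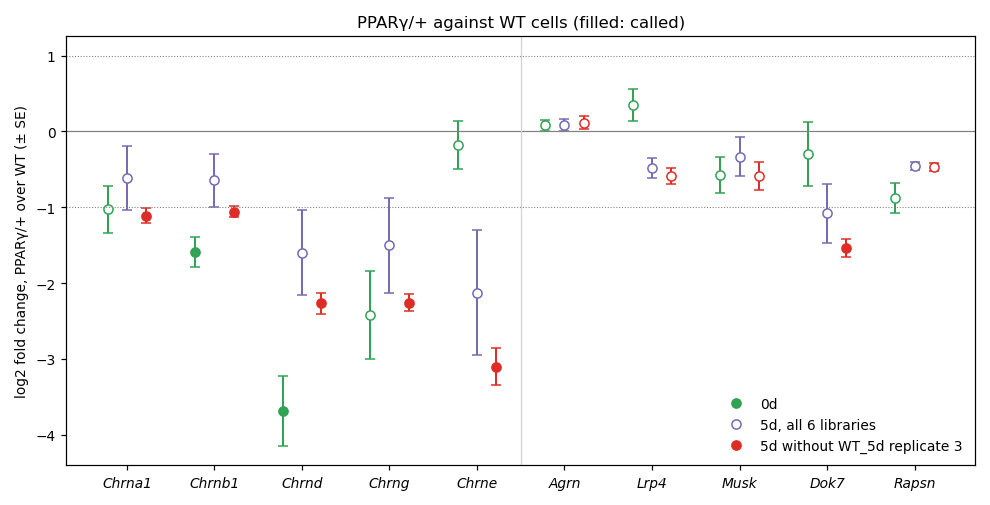
Log2 fold change of PPARγ/+ over WT cells with its SE on 0d, on 5d and on 5d without WT_5d replicate 3, from limma on log2(FPKM + 0.1). Filled points passed an adjusted p-value of 0.05 and 2-fold, and dotted lines mark 2-fold. On 5d, 0 genes are filled with all libraries and 6 without WT_5d replicate 3. That library was the lowest of its group for all but *Agrn*, so leaving it out favours larger differences.

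FPKM is scaled to the annotated exonic length of the gene, so levels of the 10 genes were also set in order within each group. The transcripts present may be shorter than this length, which the order does not take into account. In WT_0d the order of the means was *Chrna1*, *Rapsn*, *Chrnb1*, *Lrp4*, *Chrnd*, *Agrn*, *Musk*, *Dok7*, *Chrng* and *Chrne*, from 31.6 to 0.114 FPKM. The libraries of the neighbours from *Chrna1* to *Agrn* overlapped, and so did those of *Dok7* and *Chrng*. In WT_5d *Chrng* stood in the second place, at 80.9 ± 50.9 FPKM (SD, n = 3), after *Chrna1* at 129 ± 62.7 FPKM (SD), and the pair overlapped. In PPARγ/+_0d the order was *Chrna1*, *Lrp4*, *Rapsn*, *Agrn*, *Chrnb1*, *Musk*, *Dok7*, *Chrnd*, *Chrng* and *Chrne*, from 14.9 to 0.0836 FPKM, where *Chrna1* lay apart from *Lrp4* and *Chrng* overlapped *Chrne*. In PPARγ/+_5d *Chrna1* at 76.0 ± 6.46 FPKM (SD) lay apart from the next group of *Lrp4*, *Rapsn*, *Chrng* and *Chrnb1*, which overlapped their neighbours between 27.4 and 21.6 FPKM.

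Ratios between subunits within a library do not depend on its scaling. The ratio of *Chrna1* to the mean of *Chrnb1*, *Chrnd* and the sum of *Chrng* and *Chrne* was 4.44, 4.44 and 4.12 in WT_0d, 2.20, 2.25 and 2.96 in WT_5d, 8.52, 9.70 and 9.64 in PPARγ/+_0d, and 3.95, 3.78 and 4.03 in PPARγ/+_5d. It was lower on 5d than on 0d in both cell types and higher in PPARγ/+ than in WT cells on both days, with no overlap in any of the 4 comparisons. The exact two-sided permutation p was 0.1 in each, the smallest that 3 libraries against 3 can give. The ratio of WT_5d replicate 3 lay below all those of PPARγ/+_5d.

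The ratio of *Chrng* to *Chrne*, per length, compared the fetal with the adult subunit. Over the summed fragments of a group, it was 11.8 in WT_0d (95% exact counting interval 6.84 to 22.4), 94.7 in WT_5d (77.6 to 117), 1.22 in PPARγ/+_0d (0.579 to 2.79) and 391 in PPARγ/+_5d (180 to 1067). In WT_0d the libraries were at 6.77, 56.4 and 2.59, and replicate 2 gave 278 of the 379 *Chrng* fragments. Without it the ratio was 3.73 (1.997 to 7.70). The fetal subunit was thus the higher of the pair in each group except PPARγ/+_0d, where the interval holds a ratio of 1. Between the cell types on 5d the libraries overlapped, with 92.3, 83.1 and 293 in WT_5d and 726, 419 and 262 in PPARγ/+_5d (exact two-sided permutation p = 0.2 for the log2 ratio). The denominators were 1 to 3 fragments in WT_5d replicate 3 and in every PPARγ/+_5d library. Lengths were the annotated exonic ones, 4163 bases for *Chrng* and 1690 for *Chrne*, and the intervals cover no error in them.

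**Figure D4:**
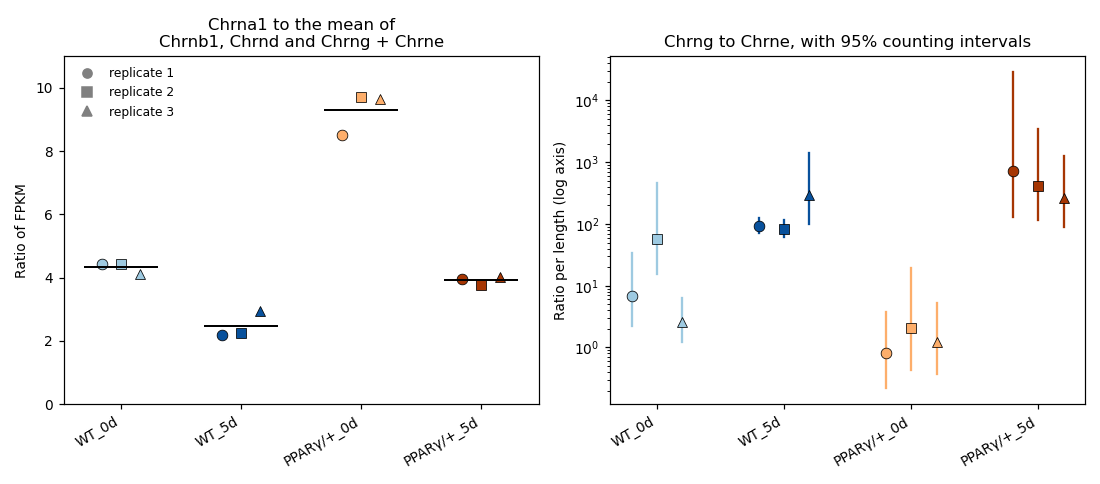
Left, ratio of FPKM of *Chrna1* to the mean of the other subunits in each library, with group means as bars. Right, ratio of *Chrng* to *Chrne* per length on a log axis, where lines are 95% exact counting intervals of 1 library. The left ratio is 2.20 to 2.96 in WT_5d and 8.52 to 9.70 in PPARγ/+_0d.

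*Musk* to *Rapsn*, the kinase against the clustering protein, overlapped between groups in 3 of the 4 comparisons, with differences of the mean log2 ratio of 0.40 and 0.23 from 0d to 5d in WT and PPARγ/+ cells and of 0.11 between the cell types on 5d. On 0d the ratio was higher in PPARγ/+ cells by 0.29 without overlap, and the exact two-sided permutation p was again 0.1.

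For the 9 genes with a mean of at least 1 FPKM, the gene whose log2 level ran most alike was looked for among 11681 others, as a description over the 12 libraries, which share the differences between groups and the 2 libraries that stand apart. For *Chrna1* it was *H19*, an imprinted noncoding RNA (Pearson r = 0.995). *Trim55*, a sarcomere-associated ubiquitin ligase, came first for both *Chrnb1* (r = 0.989) and *Chrnd* (r = 0.995). Those of the clustering genes were *Enpp2* for *Agrn* (r = 0.994), *Sertad4* for *Lrp4* (r = 0.993), *Drp2* for *Musk* (r = 0.993), *Ntn1* for *Rapsn* (r = 0.975) and *Ank1* for *Dok7* (r = 0.916).

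The other genes of the synapse and its control came from 7 lists of 74 genes in all, of which 62 passed the filter. From 0d to 5d, 11 of the 62 rose and 2 fell in WT cells, and 13 rose and 1 fell in PPARγ/+ cells, against 8.94% and 9.11% of all genes that rose and 7.53% and 6.06% that fell. These counts include *Col13a1* in WT cells and *Chrna2* in PPARγ/+ cells, each of which passed the filter only through the group in which it was high. The median log2 fold changes of the 62 were 0.09 and -0.02.

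Of the genes of the synaptic cleft and basal lamina, 5 of 10 rose in WT and 4 of 10 in PPARγ/+ cells, against 8.94% and 9.11% of all genes. The 5 in WT cells include *Col13a1*, which passed the filter only through the WT_5d libraries, so its call is not separate support. *Colq*, the collagen tail that anchors acetylcholinesterase, went from 0.0623 to 1.83 FPKM in WT cells (log2 3.55 ± 0.35 SE) and from 0.0789 to 1.61 FPKM in PPARγ/+ cells (3.28 ± 0.24 SE). *Ache*, acetylcholinesterase itself, rose by 2.06 and 2.01 on the log2 scale, to 0.801 and 0.917 FPKM, and *Nid2*, a nidogen of the basal lamina, by 2.41 and 2.15. *Lama4* was called in WT cells at 1.13 (0.98, and no longer called, without WT_0d replicate 1) and *Lama2* in PPARγ/+ cells at 1.99, and that their changes differ between the cell types was not shown (interaction adjusted p = 0.488 and 0.591 in limma). *Col13a1*, a transmembrane collagen of the synapse, was listed at 0 in all libraries on 0d, at 0.347 ± 0.13 FPKM (SD) in WT_5d and at 0 or 1 fragment per library in PPARγ/+_5d.

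Of the neuregulin receptors and Ets factors, *Erbb3*, a neuregulin receptor also used as a Schwann cell marker, rose in both cell types, from 0.916 to 8.92 FPKM in WT and from 0.102 to 1.02 FPKM in PPARγ/+ cells. On 0d it was lower in PPARγ/+ cells by -2.30 ± 0.28 (SE, adjusted p = 0.0203 in limma), a call that was kept without WT_0d replicate 3 and lost without any other 1 library. *Etv4*, an Ets factor, fell in both, by 2.60 ± 0.17 (SE) on the log2 scale in WT and by 1.88 ± 0.12 (SE) in PPARγ/+ cells, and was lower in PPARγ/+_0d by -1.31 ± 0.09 (SE, adjusted p = 0.00514 in limma).

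Among the regulators that respond to activity, the myogenic factor *Myog* rose from 6.62 to 192 FPKM in WT cells (log2 5.40 ± 0.88 SE) and from 1.65 to 85.0 FPKM in PPARγ/+ cells (5.90 ± 0.51 SE), and *Trp63* by 3.84 and 2.75. *Myod1* rose by 1.31 ± 0.47 (SE) in WT cells, a call lost without WT_0d replicate 1 or 3 or WT_5d replicate 1 or 2, and by 1.60 ± 0.22 (SE) in PPARγ/+ cells. *Hdac9* was called in PPARγ/+ cells at 1.10, and at 0.98 it was no longer 2-fold without PPARγ/+_5d replicate 3. *Myf5* fell by 1.46 on the log2 scale in WT cells, and in PPARγ/+ cells it was at 0.74, which is under 2-fold.

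Among 10 other genes of congenital myasthenia, such as the glycosylation enzymes *Dpagt1*, *Alg2* and *Alg14* and the linker *Plec*, 0 were called in either cell type by limma, and voom with the same thresholds called 0 as well. *Plec* was at -0.70 and -0.71, *Alg14* at -0.52 and -0.86, *Dpagt1* at -0.59 and -0.69, *Alg2* at 0.41 and 0.25, *Prepl* at 0.30 and -0.17 and *Tor1aip1* at 0.22 and 0.16. An unadjusted p-value below 0.05 was reached by 4 of the 10 in WT and by 5 in PPARγ/+ cells, against 46.8% and 54.4% of all genes tested.

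**Figure D5:**
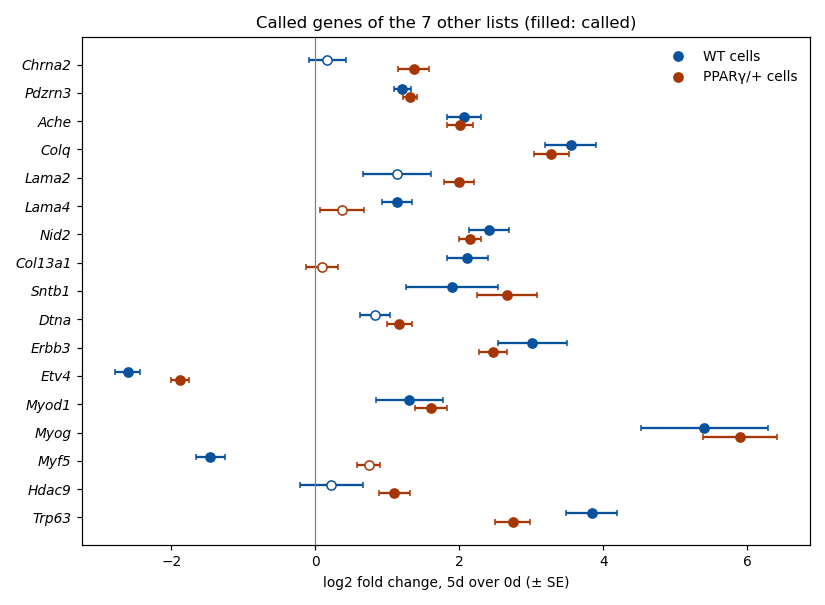
Log2 fold change from 0d to 5d with its SE, in WT and PPARγ/+ cells, of the 17 genes of the 7 other lists that passed the thresholds in either cell type. Filled points passed. *Myog* has the largest change, at 5.40 and 5.90, and *Etv4* lies below 0 in both cell types. *Col13a1* and *Chrna2* each passed the filter only through the group in which they were high.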

How the data were processed

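RNA of 12 C2C12 libraries, 3 in each of 4 groups, was sequenced as pairs with a TruSeq RNA kit that does not mark strand. The authors used Trim Galore for trimming, STAR for alignment and HTSeq for counting on Ensembl genes of GRCm38 and calculated FPKM, the deposited values used here. The submitters' processing notes name mm9 as the build. Exonic lengths of the GRCm38 annotation (GENCODE M21) gave whole fragments, within 0.002, for 21089 of 27138 expressed genes and for all 10 genes followed here, so positions are given on GRCm38. A second deposited table held the FPKM as log2 values and was not used, and 0 columns belonged to other samples.

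The 10 genes and the lists were chosen with earlier results of these data known. Genes with at least 0.1 FPKM in at least 3 libraries were fitted as log2(FPKM + 0.1) with limma (version 3.58.1, with a trend, R 4.3.3), and adjusted p-values are Benjamini-Hochberg values over all 18023 genes. Fold changes on this scale understate those of genes near 0.1 FPKM. Days were compared within each cell type with an unadjusted p-value no higher than 0.05, and cell types within each day with an adjusted one, both with 2-fold or more. The interaction was called with an adjusted p-value no higher than 0.05. Ratios of FPKM within libraries were compared by exact permutation tests with scipy 1.17.1. Fragments were recovered as FPKM times length times mapped pairs, and intervals of fragments are exact 95% intervals that cover counting error only. The fits were tested on simulated data with known changes.

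Beyond the 10, a gene of the lists was named when it was called between the cell types or in the interaction, or was among the 2 largest changes of its list in either direction with at least 1 FPKM. *Ache*, *Lama2*, *Lama4*, *Myod1*, *Hdac9*, *Chrna2*, *Des*, *Cdh15*, *Tubb3* and *Stmn2* were named after their values were seen. The gene most like *Chrng* and 1 gene of the lists are not reported here. The alternatives changed the pseudocount (1 or 0.01) and the filter (none or 1 FPKM), and used median-ratio scaling, quantile normalization, voom on the recovered fragments, array weights, all 12 libraries in 1 fit, the other kind of p-value, a replicate block and leaving out each library. The fit without WT_0d replicate 2 and WT_5d replicate 3 together, and the subunit ratio of WT_0d without replicate 2, were chosen after seeing the data.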

Additional observations from a re-analysis of the deposited data

Results flagged for a closer look

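*Col13a1*, a collagen of the synaptic cleft, moved unequally in WT and PPARγ/+ cells between the days, with an interaction of -2.02 ± 0.37 on the log2 scale (SE, adjusted p = 0.0385 in limma). The gene passed the filter only through the WT_5d libraries, so this interaction rests on the group through which it was tested. Both groups on 0d were at 0 fragments, WT_5d had 21 to 47 fragments per library and PPARγ/+_5d had 0 or 1, so the size of the interaction depends on the value added to each FPKM. It was -0.41 with a pseudocount of 1 and -4.40 with 0.01, and was called in neither, and it was called in 1 of the 12 fits that left out 1 library, the one without WT_5d replicate 3.

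*Myf5*, a myogenic factor, also moved unequally, with an interaction of 2.20 ± 0.27 (SE, adjusted p = 0.00844 in limma). Its mean level went from 12.02 ± 0.99 FPKM (SD, n = 3) to 4.43 ± 1.3 in WT cells and from 3.96 ± 0.30 to 6.78 ± 1.5 in PPARγ/+ cells.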

How the results depend on the processing

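From 0d to 5d, the number of the 10 genes that rose was 6 to 8 in WT cells over these alternatives and 9 without WT_0d replicate 2 and WT_5d replicate 3 together, and 7 or 8 in PPARγ/+ cells. The alternatives called 8% to 19.8% of all genes in WT cells and 6.89% to 19% in PPARγ/+ cells, in either direction. Median-ratio scaling moved the median of all genes by 0.11 and 0.12 on the log2 scale in these comparisons and turned no direction of the 10. Between the cell types on 5d, none of the 10 were called except 4 with array weights (2.79% of all genes in either direction), 3 with an unadjusted p-value (3.36%) and 6 without WT_5d replicate 3 (4.01%). The range was 0 to 6 over fits with 1 library left out. On 0d, the 2 calls became 3 with the 1 FPKM filter (2.25% of all genes), with voom (2.74%) and with all 12 libraries in 1 fit (1.96%). They became 0 without the filter (0.394%), 0 with the replicate block, 4 with an unadjusted p-value (3.67%) and 0 to 1 with 1 library left out (0.305% to 0.76%). The main fit called 1.59% of all genes on that day. In the interaction, 0 calls became 2 with array weights, which called 11.5% of all genes, 1 without WT_5d replicate 3 and 2 without WT_0d replicate 2 as well. The cause was not tested. Over all genes tested, deviations from group means of the 18 pairs with the same replicate number correlated between -0.068 and 0.083. Those of the 36 pairs with other numbers correlated between -0.12 and 0.10. Such low values cannot tell whether the libraries were paired. In WT cells by day, the replicate block moved the SE of *Chrna1* from 0.48 to 0.26 and that of *Chrne* from 0.83 to 0.88. The replicate block called 0 of the 18023 genes between the cell types on either day. It also ended the calls of *Erbb3*, *Etv4* and *Myf5* on 0d and of *Col13a1* in the interaction.

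Directions turned only in values that were not called. In the interaction, *Chrng* was -0.55 with a pseudocount of 1, *Chrna1* -0.074 and *Agrn* -0.0099 with array weights, and over the fits that left out 1 library, or WT_0d replicate 2 and WT_5d replicate 3 together, *Chrna1* ran from -0.40 to 0.72 (-0.087 without WT_5d replicate 3), *Chrng* from -0.51 to 1.35, *Agrn* from -0.068 to 0.048 and *Musk* from -0.24 to 0.43. On 0d, with 1 library left out, *Chrne* ran from -0.41 to 0.11 and *Dok7* from -0.78 to 0.028. With a pseudocount of 1, the difference in the log2 ratio of *Chrng* to *Chrne* between the cell types on 5d was -0.74 and that of *Musk* to *Rapsn* from 0d to 5d in PPARγ/+ cells was -0.025, and the latter ratio between the cell types on 5d ran from -0.12 to 0.27 with 1 library left out. *Chrne*, at 1 to 8 fragments in 10 of the 12 libraries, is limited by depth and had no value under the 1 FPKM filter.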

Other observations

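Of 17 adaptors, kinases and turnover factors of MuSK, 1 rose in each cell type, against 8.94% of all genes in WT and 9.11% in PPARγ/+ cells. It was *Pdzrn3*, a ubiquitin ligase of MuSK, by 1.21 ± 0.12 on the log2 scale in WT cells (SE) and by 1.31 ± 0.10 in PPARγ/+ cells. *Macf1*, a cytoskeletal linker, was at 0.81 and 0.73, *Abl2* at -0.90 and -0.49, *Rac1* at -0.58 and -0.52 and *Src* at -0.67 and -0.16, all under 2-fold. Of 7 partners of the dystrophin complex at the synapse, *Sntb1*, a syntrophin, rose by 2.66 ± 0.42 in PPARγ/+ cells and by 1.90 ± 0.64 in WT cells, where the call was lost without WT_0d replicate 1 or 3 or WT_5d replicate 1 or 2. *Dtna*, a dystrobrevin, was called in PPARγ/+ cells at 1.17, and at 0.99 without PPARγ/+_0d replicate 1 it was not. Of 11 nicotinic subunits outside the muscle receptor, 2 passed the filter, and *Chrna2* was called in PPARγ/+ cells at 1.36, to 0.235 FPKM. Only its PPARγ/+_5d libraries, at 0.178 to 0.270 FPKM, reached the 0.1 FPKM of the filter. *Chrna2* was thus tested through the group in which it was high, and its call is not separate support.

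The following genes of the lists were under 2-fold between the days in both cell types. The log2 fold changes in WT and PPARγ/+ cells were -0.33 and -0.045 for *Lama5* and -0.011 and -0.14 for *Lamb2*, both laminins, and -0.11 and -0.19 for *Dtnb* of the dystrophin complex. They were 0.27 and 0.20 for the neuregulin gene *Nrg1*, -0.026 and 0.66 for the Ets factor *Etv5*, -0.45 and -0.36 for *Gabpb1* and 0.27 and -0.16 for the deacetylase *Hdac5*.

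Of 8 neuron markers, 3 passed the filter, and their list summed to 42.8 to 69.7 FPKM in WT_0d, 7.59 to 16.2 in WT_5d, 24.3 to 34.3 in PPARγ/+_0d and 9.41 to 11.05 in PPARγ/+_5d. The 6 Schwann cell markers, which include *Erbb3*, summed to 1.31 to 1.95 FPKM in WT_0d, 4.79 to 14.2 in WT_5d, 0.615 to 0.733 in PPARγ/+_0d and 1.95 to 2.06 in PPARγ/+_5d. The part of these lists in the results above was not tested.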
